A study of Mus musculus with 12 samples.

Results

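In whole back skin of carcinogen-treated mice that lack αβ T cells, 82 transcripts stood apart from every other library of the study and were not apart in skin of the same genotype that had first received regulatory T cells (Tregs). Of these, 43 were lower and 39 were higher in Tcrb-/- DMBA skin. They were chosen by their measured level, as CPM, the estimated reads of a transcript divided by all estimated reads of its library, times 1000000. A transcript had to reach a mean of 0.5 CPM over the 12 libraries and have a read in at least 1 library of each group. The 3 Tcrb-/- DMBA libraries then had to lie all below or all above the other 9, with a group mean at least 2-fold away from the mean of each of the other groups. Of 85565 transcripts listed, 30678 passed the low-value filter, so the lower members were 0.14% and the higher members 0.127% of those that could have been chosen. Because the choice used the Tcrb-/- DMBA libraries, every difference from that group is given below as a description, and no test of it is reported.

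Groups of mice on the FVB background were compared, 4 in all with 3 libraries each, made from polyA RNA of whole skin. UT WT mice had a wild-type genotype and were left untreated. WT DMBA mice had the same genotype and received DMBA on the skin at 200 ng weekly for 6 weeks. Tcrb-/- DMBA mice were homozygous for the deletion of Tcrb and had the same DMBA course, and Tcrb-/- + Treg DMBA mice were of that genotype, received CD3+CD4+CD25+ cells of WT mice into a vein, and were then given DMBA. The source of these cells was the spleen, or the spleen together with lymph nodes, depending on the passage of the study that describes it. The methods of the study give age-matched females of at least 7 weeks for all experiments. Tcrb-/- mice still have γδ T cells, B cells and innate lymphocytes, and the transferred cells were their only source of αβ T cells. The treatment entry of the 3 WT DMBA libraries reads naive, so they were grouped by their titles. Whether the libraries of a group came from different mice is not given in the sources used here, so a p value covers the spread between these libraries and no more.

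Tregs are CD4+ T cells that hold back other immune cells, and in skin they also act on hair follicle stem cells and on the repair of the barrier. Tcrb is needed for the T cell receptor of αβ T cells, and without it these cells, Tregs among them, do not develop. DMBA is a polycyclic hydrocarbon that skin enzymes convert into a form that binds DNA, and repeated exposure thickens the epidermis and leads to tumors. The question these groups address is which levels in DMBA-treated skin differ without αβ T cells, and whether Tregs alone bring them back. No library came from untreated Tcrb-/- skin. A difference of genotype present before DMBA and a changed response to DMBA can therefore not be told apart.

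The values are estimates for transcripts of the FVB/NJ strain, and no table used here pairs these transcripts with genes. The members are therefore described by their length, their level and, for the first 2 in each direction, their identifier. What the encoded proteins do, which cells express them, the targeted gene and the markers of skin and immune cells were not analysed here. In bulk RNA a lower level can stand for fewer cells of a type or for less RNA per cell, and these cannot be told apart. Depth was 17312566 to 31701620 estimated reads per library (median 22007166), so 3 reads corresponded to 0.0946 to 0.173 CPM. Over the 500 most variable transcripts, 10 of the 12 libraries correlated best with their own group. Tcrb-/- DMBA replicate 1 lay nearest to Tcrb-/- + Treg DMBA, with a mean correlation of 0.544 against 0.0994 with its own group, and WT DMBA replicate 1 lay nearest to UT WT, at 0.293 against 0.22. Some of the summary counts and medians that rest on these libraries are given with and without them. The others, the summed levels among them, are given with all 12 libraries only. Single members are given with every library, and each direction holds only as far as the labels do.

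The number of members rose when any of the Tcrb-/- DMBA libraries was set aside. With fewer libraries that must lie on the same side the rule is easier to meet, so part of this rise is fixed by the rule. Without Tcrb-/- DMBA replicate 1 the same rule found 101 lower and 98 higher transcripts, of which 34 and 34 were members. Without replicate 2 it found 196 and 85, and without replicate 3 it found 141 and 85. Setting aside WT DMBA replicate 1 gave 50 lower and 50 higher, and setting aside Tcrb-/- + Treg DMBA replicate 1 gave 72 lower and 44 higher. At any fold, 171 transcripts (0.557%) had all 3 Tcrb-/- DMBA libraries below the other 9, and 144 (0.469%) had them above. The shares that a random order of the 12 libraries would give were not computed. Whether more transcripts stood apart than such an order would give was therefore not tested. At the edge of the rule, the last lower transcript inside was 2560 nt long and 2.01-fold below its nearest group mean, and the first outside was 3327 nt long and 1.98-fold below. Among the higher transcripts, the last inside, of 4867 nt, was 2.02-fold above and the first outside, of 1994 nt, 1.99-fold above.

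For scale, the rule was also applied with each of the other groups set apart in place of Tcrb-/- DMBA. It found 610 lower and 591 higher transcripts for UT WT, 33 and 151 for WT DMBA, and 774 and 37 for Tcrb-/- + Treg DMBA. By CPM, Tcrb-/- + Treg DMBA skin thus had many more transcripts below all other libraries than Tcrb-/- DMBA skin did, and about as many above. CPM placed the median of the 30678 transcripts past the filter in that group at -0.16 on the log2 scale against WT DMBA. Against UT WT it was -0.18. The TMM scaling of edgeR placed both at 0, but over the 54539 transcripts tested. The sets differ, so these medians do not show what the scaling alone does. With the other groups set apart, the rule was run by CPM only, and how far this shift enters the counts was not tested. These counts share libraries and were not tested against each other.

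**Figure D1:**
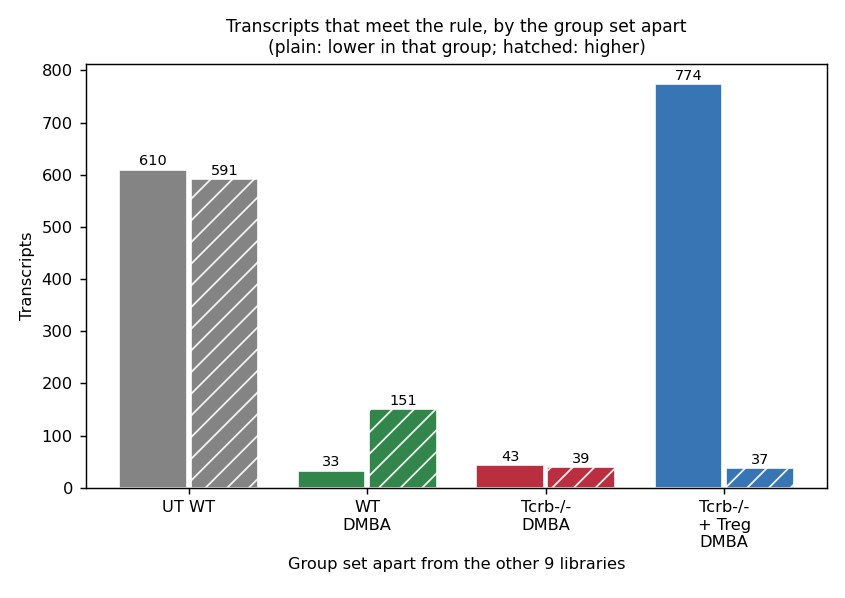
The bars give the number of transcripts (vertical axis) that meet the same rule when each group (horizontal axis) is set apart from the other 9 libraries, with plain bars for lower and hatched bars for higher. The Tcrb-/- DMBA bars, at 43 and 39, are short beside the 610 and 591 of UT WT and the 774 lower transcripts of Tcrb-/- + Treg DMBA.

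Most members had few reads. The lower members had a median of 32.2 estimated reads per library and the higher members 91.7, beside 142.7 over all transcripts that passed the filter. The lower members were 172 to 14972 nt long (median 1348) and the higher members 413 to 6457 nt (median 1571), beside a median of 2301 nt over all. All 43 lower members would have passed the filter on the other 9 libraries alone, as would 32 of the 39 higher members. The other 7 higher members passed only with the libraries in which they were high.

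In most members, reads shared between transcripts entered the estimate of at least 1 library. Only 2 of the 43 lower members (4.65%) and 6 of the 39 higher members (15.4%) had whole-number estimates in every library (tolerance 0.01), beside 5.15% over all. A non-whole estimate means that reads were divided among similar transcripts, and in such a transcript a change of its own level and a change in how reads were divided cannot be told apart. Of the 43 lower members, 18 were at 0 in at least 1 Tcrb-/- DMBA library, beside 3446 of the 30678 transcripts past the filter. Of the 18, 9 were at 0 in 2 of the 3. The filter and the rule allow no lower member at 0 in all 3 or in any other library. Of the higher members, 22 were at 0 in at least 1 library, 19 of them in UT WT, 10 in WT DMBA and 9 in Tcrb-/- + Treg DMBA. The 3 pairs of members close in identifier number were all among the higher members.

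**Figure D2:**
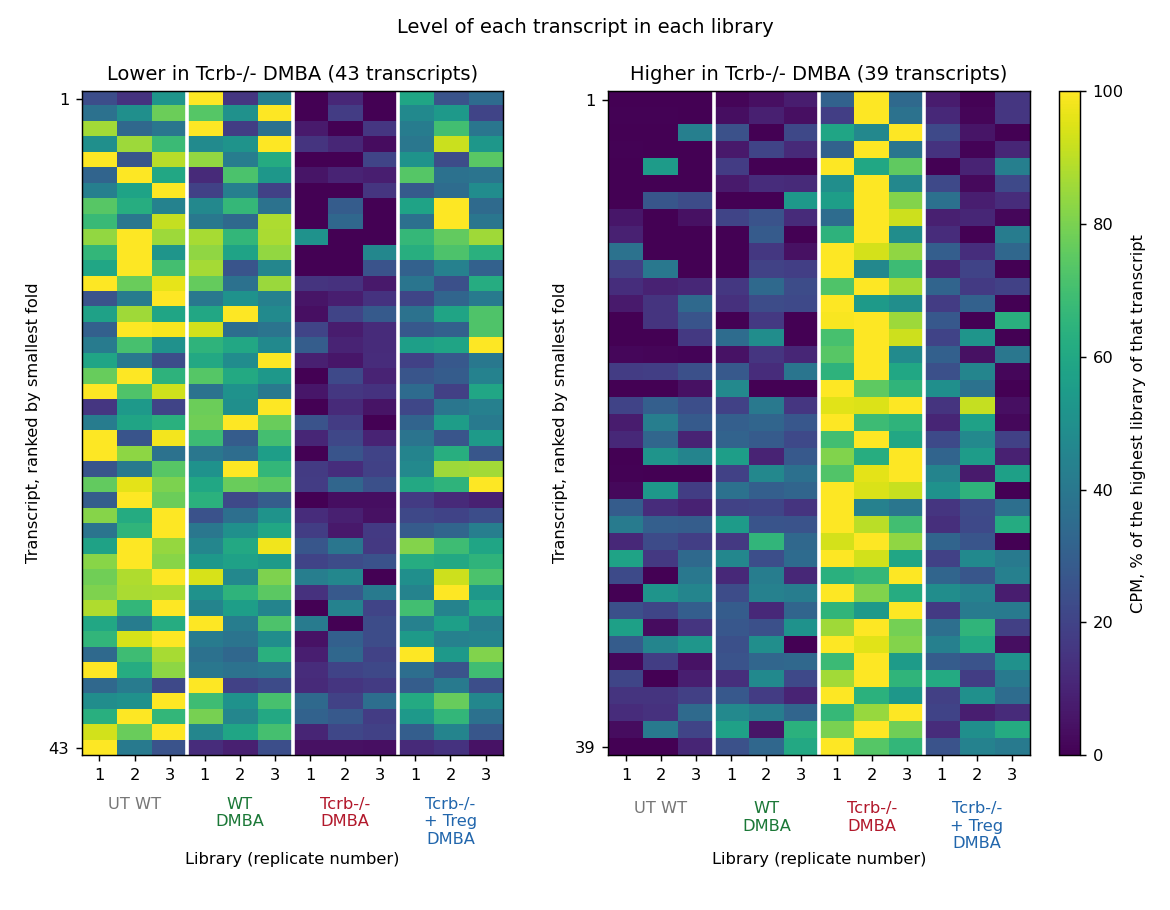
Each row is a member ranked by its smallest fold between Tcrb-/- DMBA and another group, each column is a library, and the colour gives the CPM as a percentage of that member's highest library. The 43 lower members are dark in the 3 Tcrb-/- DMBA columns, and the 39 higher members are bright there and mostly dark in UT WT.

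Summed over the 43 lower members, the level was 250.3 to 308.2 CPM in UT WT, 179.6 to 214.3 in WT DMBA and 169.8 to 203.0 in Tcrb-/- + Treg DMBA. In Tcrb-/- DMBA it was 55.8, 45.9 and 49.0 CPM. The summed level after Treg transfer thus overlapped that of WT DMBA and lay below every UT WT library. Without the member that held the most reads, the mean was 38.8 CPM in Tcrb-/- DMBA, 138.3 in Tcrb-/- + Treg DMBA, 146.1 in WT DMBA and 219.1 in UT WT.

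The median fold of the lower members was 4.83 against UT WT, 4.12 against WT DMBA and 3.12 against Tcrb-/- + Treg DMBA. The group mean nearest to Tcrb-/- DMBA was that of Tcrb-/- + Treg DMBA in 26 of them, of WT DMBA in 13 and of UT WT in 4. The gap between the groups was narrow for many. The lowest of the other 9 libraries was a median of 1.23 times the highest Tcrb-/- DMBA library, and in 9 members less than 1.1 times, while 3 members had a gap of 2-fold or more. Tcrb-/- DMBA replicate 1, the library nearest to Tcrb-/- + Treg DMBA over all variable transcripts, was alone the lowest of its group in 17 of the 43 and shared a level of 0 with another library in 8. Without it, and with the same members, the median folds were 4.68, 3.59 and 2.91, the gap was 1.26 times at the median and 2-fold or more in 7, and the nearest group was Tcrb-/- + Treg DMBA in the same number, 26.

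The lower member with the largest smallest fold was MGP_FVBNJ_T0047131.1, a transcript of 1581 nt. Its level was 0.996, 0.619 and 2.18 CPM in UT WT, 4.18, 0.664 and 1.82 in WT DMBA, and 2.46, 1.07 and 1.47 in Tcrb-/- + Treg DMBA. In Tcrb-/- DMBA it was 0, 0.459 and 0 CPM. Only replicate 2 of that group had reads, 9.32 of them by estimate, and the other 3 groups overlapped. The mean was 0.153 ± 0.265 CPM (SD, n = 3) in Tcrb-/- DMBA and 1.67 ± 0.715 in Tcrb-/- + Treg DMBA, and the smallest fold of the 3 was 8.28. Against WT DMBA the level after Treg transfer differed by -0.18 on the log2 scale (SE 1.25, edgeR adjusted p = 1).

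The next was MGP_FVBNJ_T0065048.1, of 320 nt. It had 1.01, 1.35 and 2.10 CPM in UT WT, 2.0, 1.38 and 2.71 in WT DMBA, 0, 0.482 and 0 in Tcrb-/- DMBA and 1.29, 1.46 and 0.56 in Tcrb-/- + Treg DMBA. Here too replicates 1 and 3 of Tcrb-/- DMBA were at 0, and Tcrb-/- + Treg DMBA replicate 3 lay just above Tcrb-/- DMBA replicate 2. The smallest fold was 6.86, and the log2 difference between Tcrb-/- + Treg DMBA and WT DMBA was -0.70 (SE 1.20, edgeR adjusted p = 0.909).

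The next 6 lower members by rank were 4139, 172, 936, 740, 14972 and 3048 nt long, with smallest folds of 5.17 to 6.54. The 14972-nt transcript had 39.1, 52.4 and 90.4 CPM in UT WT, 17.6, 39.0 and 17.6 in WT DMBA and 25.7, 31.8 and 44.1 in Tcrb-/- + Treg DMBA. In Tcrb-/- DMBA it was at 0 in replicates 1 and 2 and at 13.8 CPM in replicate 3. The 7546-nt transcript, rank 10 in the list and chosen for mention after its values were seen, had 44.5 to 67.4 CPM in all of the other 9 libraries and 34.3, 0 and 0 CPM in Tcrb-/- DMBA. In both, abundant reads in most libraries stood beside estimates of exactly 0, and the group mean rested on 1 library. Transcripts within 10 identifier numbers of the 7546-nt transcript summed to a mean of 57.5 CPM in Tcrb-/- DMBA and 22.0 in the other 9 libraries. With it included the means were 68.9 and 77.2 CPM, and the libraries overlapped. For the 14972-nt transcript the neighbours summed to 527.0 and 670.1 CPM. Whether reads were divided differently among nearby transcripts was not tested.

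Other lower members had reads in all 3 Tcrb-/- DMBA libraries, and 3 of them were picked for mention after their values were seen, 1 for its even libraries within each group and 2 for their whole-number estimates. The first, of 2282 nt, had 0.818, 0.934 and 1.01 CPM in Tcrb-/- DMBA, and 2.5, 2.44 and 2.63 in Tcrb-/- + Treg DMBA beside 2.15, 2.31 and 2.2 in WT DMBA and 3.32 to 4.04 in UT WT. Of the 2 lower members with whole-number estimates, the 476-nt transcript had 1.5, 1.03 and 2.11 CPM in Tcrb-/- DMBA, 3.24, 4.64 and 6.73 in Tcrb-/- + Treg DMBA, and 10.2, 8.20 and 16.8 in WT DMBA. In UT WT it had 9.91, 6.81 and 4.0 CPM, a range that overlapped that of Tcrb-/- + Treg DMBA. The other, of 3326 nt, had 0.50, 0.344 and 0.176 CPM in Tcrb-/- DMBA and 0.863, 0.80 and 0.927 in Tcrb-/- + Treg DMBA, with 0.99, 1.44 and 2.04 in WT DMBA and 2.43 to 3.95 in UT WT. In both whole-number members every Tcrb-/- + Treg DMBA library lay between the Tcrb-/- DMBA and the WT DMBA libraries.

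**Figure D3:**
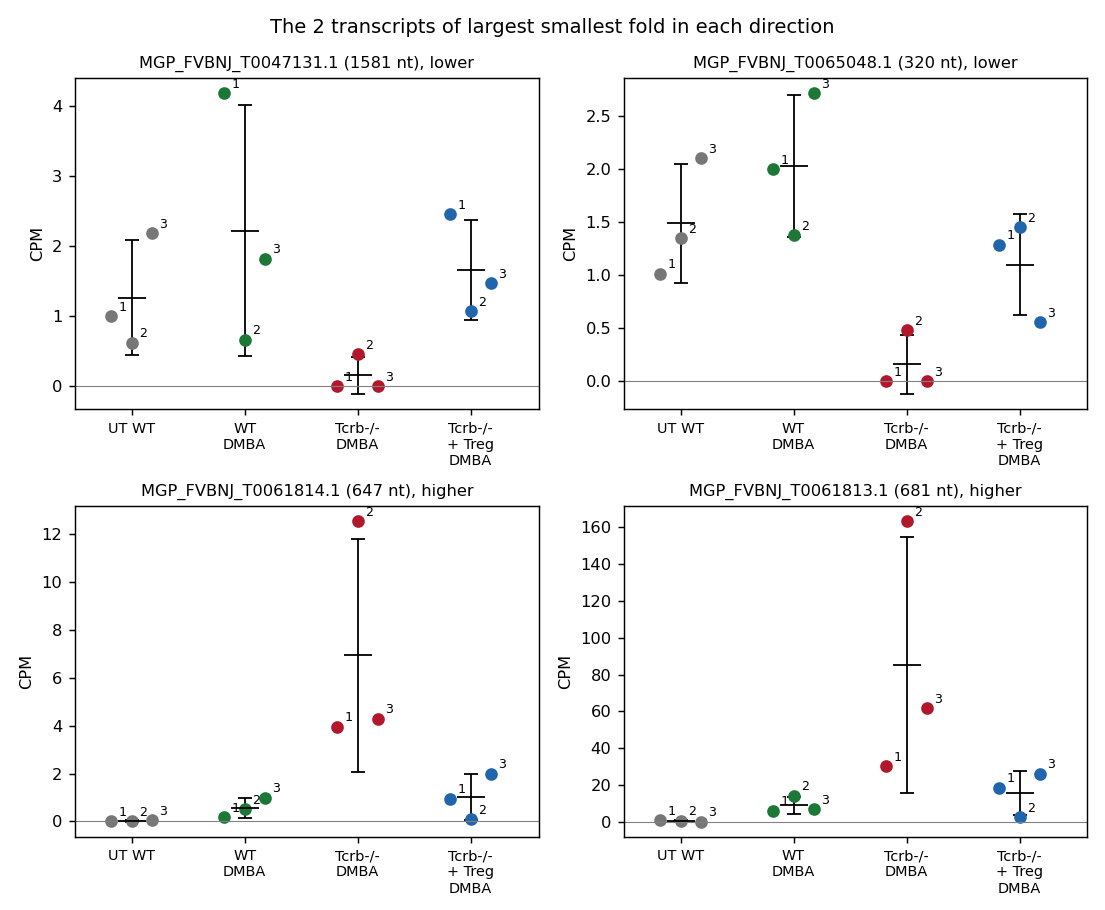
Points give the CPM of each library (numbered by replicate) for the 2 lower and the 2 higher members ranked first by their smallest fold, with the group mean and SD of 3 libraries as bars. In the lower pair Tcrb-/- DMBA replicates 1 and 3 are at 0, and in the higher pair Tcrb-/- DMBA replicate 2 is the highest library and Tcrb-/- + Treg DMBA replicate 2 the lowest of its group.

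Compared with the lower members, the higher members had a summed level that was more uneven after Treg transfer. Their summed level was 135.3 to 188.2 CPM in UT WT and 319.6, 652.8 and 466.9 in WT DMBA. It was 2383, 3242 and 1829 CPM in Tcrb-/- DMBA, and 991.2, 365.1 and 1126 in Tcrb-/- + Treg DMBA. Replicate 2 of the Treg group lay among the WT DMBA libraries, while replicates 1 and 3 lay between these and Tcrb-/- DMBA. One transcript, of 1268 nt, held most of these reads, and its own levels, given below, had the same order of Treg libraries. The place of each Treg library in the sum thus rested largely on that transcript and is not a trait of the list. Without it the mean was 799.6 CPM in Tcrb-/- DMBA, 261.4 in Tcrb-/- + Treg DMBA, 242.5 in WT DMBA and 139.5 in UT WT.

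The median fold of the higher members was 4.39 against UT WT, 3.46 against WT DMBA and 2.98 against Tcrb-/- + Treg DMBA. The nearest group mean was that of Tcrb-/- + Treg DMBA in 21 of the 39, of WT DMBA in 14 and of UT WT in 4. The lowest Tcrb-/- DMBA library was a median of 1.22 times the highest of the other 9, less than 1.1 times in 10 members and 2-fold or more in 3. Without Tcrb-/- DMBA replicate 1 the median folds were 4.50, 3.17 and 2.87, the gap was 1.27 times at the median and 2-fold or more in 6, and the nearest group was Tcrb-/- + Treg DMBA again in 21. Within groups the median coefficient of variation was 26.0% in Tcrb-/- DMBA, where these members were high, and 73.6% in Tcrb-/- + Treg DMBA. It was 87.2% in UT WT and 50.1% in WT DMBA, so the unevenness was not particular to the Treg group. In the lower members it was 61.3% in Tcrb-/- DMBA and 31.3% in Tcrb-/- + Treg DMBA. The rule used these same values and kept the Tcrb-/- DMBA libraries on 1 side of the other 9. These spreads are therefore partly fixed by the choice and are not a result about the members. Without Tcrb-/- DMBA replicate 1 the values for that group were 16.95% in the higher and 46.7% in the lower members.

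The first 2 higher members by rank carry consecutive identifier numbers, and the fourth, of 784 nt, carries the number just before them. No other run of 3 members was found. MGP_FVBNJ_T0061814.1, of 647 nt, had 0, 0 and 0.0454 CPM in UT WT, 0.165, 0.520 and 0.995 in WT DMBA, and 3.96, 12.5 and 4.30 in Tcrb-/- DMBA. In Tcrb-/- + Treg DMBA it had 0.95, 0.080 and 2.0 CPM. Every WT DMBA library lay above every UT WT library, and the Treg group spanned the WT DMBA range and beyond it on both sides. UT WT held 1 read in all, so that the ratio of WT DMBA to UT WT, 44.5, has a 95% exact interval from counting of 7.47 to 1809.

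MGP_FVBNJ_T0061813.1, of 681 nt, had 0.922, 0.694 and 0.182 CPM in UT WT, and 6.05, 14.2 and 6.78 in WT DMBA. It had 30.4, 163 and 61.9 CPM in Tcrb-/- DMBA and 18.5, 2.48 and 26.1 in Tcrb-/- + Treg DMBA. Again replicate 2 was the highest Tcrb-/- DMBA library and the lowest Treg library. The mean was 85.2 ± 69.5 CPM (SD, n = 3) in Tcrb-/- DMBA and 15.7 ± 12.1 in Tcrb-/- + Treg DMBA, with a smallest fold of 5.42. Its log2 difference was 3.92 between WT DMBA and UT WT (SE 0.95, edgeR adjusted p = 0.0942), 4.90 between Tcrb-/- + Treg DMBA and UT WT (SE 0.98, adjusted p = 0.0132), and 0.98 between Tcrb-/- + Treg DMBA and WT DMBA (SE 0.81, adjusted p = 0.661).

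The 784-nt transcript next to them had whole-number estimates throughout. Its level was 0.415, 0 and 0 CPM in UT WT, 5.83, 17.6 and 10.3 in WT DMBA, 27.1, 86.1 and 33.6 in Tcrb-/- DMBA and 12.5, 0.880 and 9.22 in Tcrb-/- + Treg DMBA. All 3 transcripts thus showed the same order of libraries in Tcrb-/- DMBA at its top, replicate 2, and in the Treg group at its bottom, also replicate 2. Its log2 difference was 6.43 between WT DMBA and UT WT (SE 1.36, edgeR adjusted p = 0.0543).

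This order recurred. In 10 of the 39 higher members every WT DMBA library lay above every UT WT library, which is 25.6% beside 14.6% of all transcripts past the filter, and in 12 without WT DMBA replicate 1. The 10 were 647, 681, 784, 413, 1933, 6235, 1268, 2358, 1043 and 4867 nt long. Their median group mean was 0.184 CPM in UT WT, 2.48 in WT DMBA, 11.5 in Tcrb-/- DMBA and 2.87 in Tcrb-/- + Treg DMBA. In 8 of them replicate 2 was the highest Tcrb-/- DMBA library, and in 8 replicate 2 was the lowest Treg library. Both counts include the run of adjacent transcripts described above. Among the other 29 higher members these counts were 10 and 7, and Tcrb-/- + Treg DMBA replicate 3 was the lowest of its group in 15. Over all 39, Treg replicate 2 was the lowest in 15 and replicate 3 in 16. Shares of these library orders over all transcripts were not computed, so they are not read as a trait of the members. In 9 of the 10 every Treg library also lay above every UT WT library, and in none of the other 29, beside 12.3% of all transcripts past the filter. The 10 were picked by UT WT libraries below those of WT DMBA, and this count uses the same UT WT libraries. Part of the split is therefore fixed by that choice.

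The 1268-nt transcript held the most reads of all members. It had 42.6, 28.0 and 20.5 CPM in UT WT, 111.4, 353.2 and 247.3 in WT DMBA, 1683, 2274 and 1098 in Tcrb-/- DMBA, and 698.7, 99.4 and 900.2 in Tcrb-/- + Treg DMBA. The Treg group thus straddled WT DMBA, with replicate 2 below the lowest WT DMBA library and the other libraries well above the highest. The 2358-nt transcript had 0.83, 0 and 0 CPM in UT WT, 35.3, 84.4 and 66.5 in WT DMBA, 131.9, 173.2 and 180.9 in Tcrb-/- DMBA, and 81.3, 12.8 and 102.6 in Tcrb-/- + Treg DMBA. The 413-nt transcript had 0, 0.0315 and 0 CPM in UT WT, 1.43, 2.48 and 2.35 in WT DMBA, 9.74, 19.8 and 9.26 in Tcrb-/- DMBA, and 4.40, 0.48 and 4.34 in Tcrb-/- + Treg DMBA. These 3 transcripts were at 0 or at their lowest in untreated skin and had reads in every carcinogen-treated library.

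The 6235-nt transcript was the most even of the 10. Its level was 1.52, 1.1 and 1.32 CPM in UT WT, 1.92, 3.99 and 2.71 in WT DMBA, 8.5, 11.7 and 10.1 in Tcrb-/- DMBA and 3.76, 2.0 and 2.24 in Tcrb-/- + Treg DMBA. The Treg libraries lay within the WT DMBA range, and the log2 difference between the 2 groups was 0.07 (SE 0.40, edgeR adjusted p = 1). Its log2 difference between WT DMBA and UT WT was 1.16 (SE 0.40, adjusted p = 0.288).

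**Figure D4:**
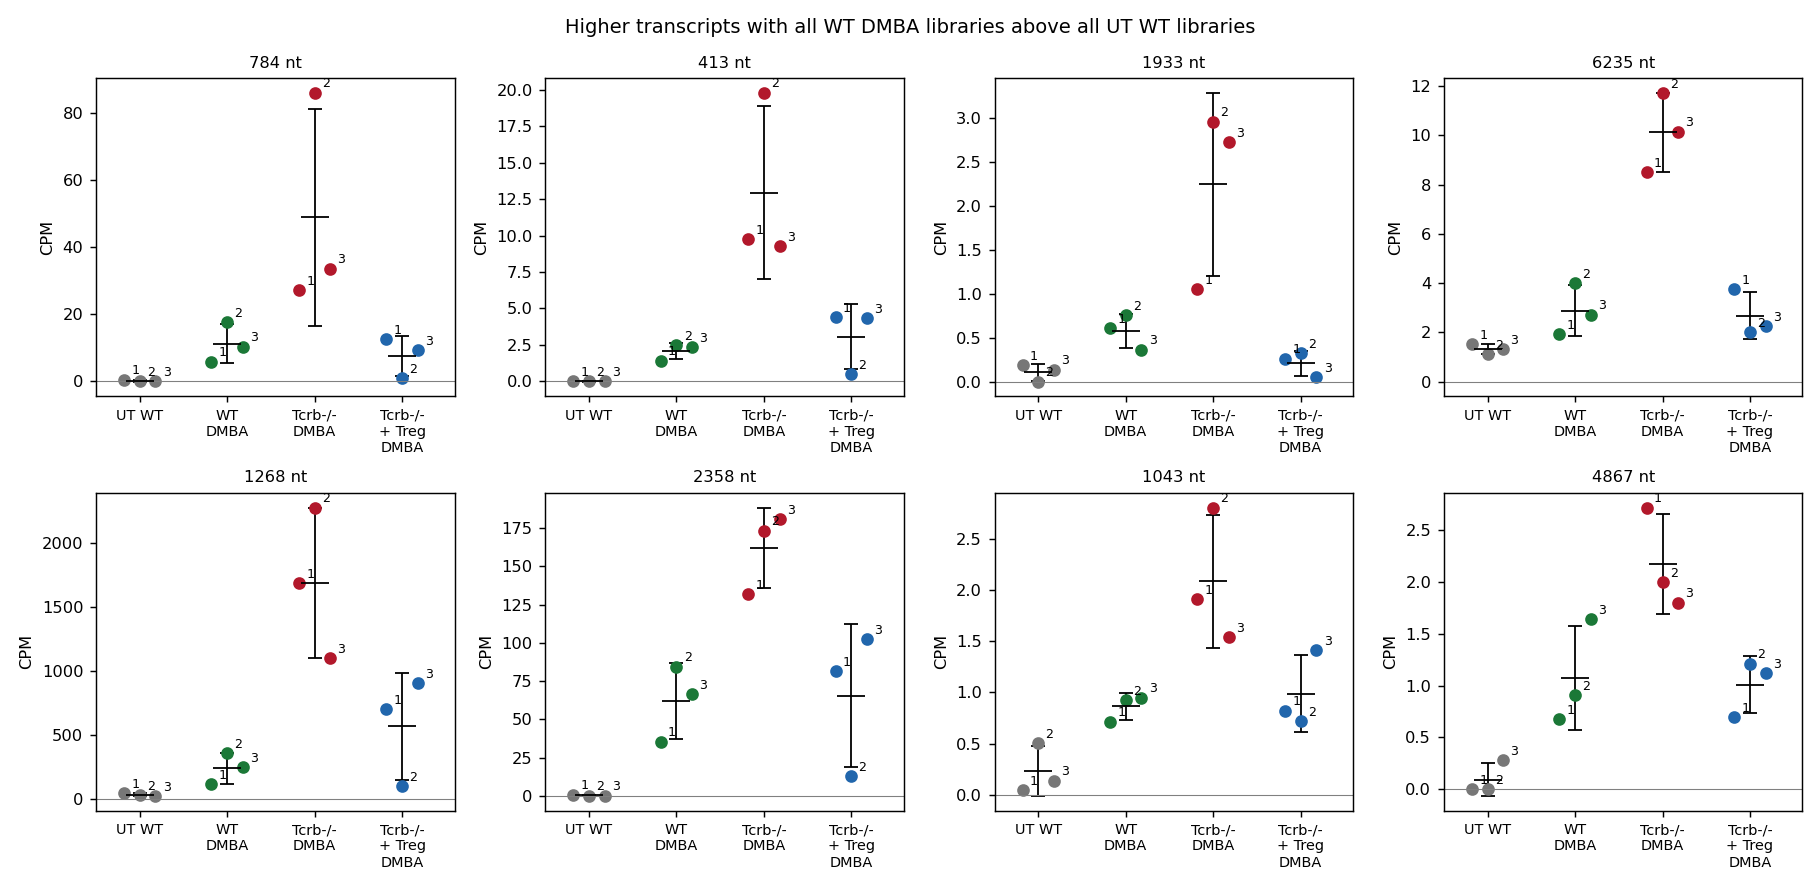
Points give the CPM of each library (numbered by replicate) for the 8 further higher members in which every WT DMBA library lay above every UT WT library, titled by transcript length, with the group mean and SD of 3 libraries as bars. Levels step up from UT WT to WT DMBA and again to Tcrb-/- DMBA, and the Tcrb-/- + Treg DMBA libraries lie near or across the WT DMBA levels, except for the 1933-nt transcript, where every Tcrb-/- + Treg DMBA library lies below every WT DMBA library.

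The remaining higher members by rank had other shapes. Of the first 8, the 959-nt transcript had 1.48, 1.18 and 2.52 CPM in Tcrb-/- DMBA and was at 0 in 4 of the other 9 libraries, with 1.09 CPM in UT WT replicate 3. The 2606-nt transcript was at 0 in 5 of the other 9 libraries and had 2.27, 1.35 and 1.72 CPM in Tcrb-/- DMBA. The 3041-nt transcript had 0.928, 1.65 and 1.35 CPM there and at most 0.897 elsewhere. In these 3 the WT DMBA and UT WT libraries overlapped. The 1933-nt transcript, with whole-number estimates, had 1.05, 2.95 and 2.72 CPM in Tcrb-/- DMBA, 0.605, 0.751 and 0.362 in WT DMBA, and 0.259, 0.32 and 0.0488 in Tcrb-/- + Treg DMBA, where every library lay below WT DMBA.

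The rule did not set Tcrb-/- + Treg DMBA against WT DMBA directly, though it limited where both could lie. Group means of these groups were within 2-fold of each other in 40 of the 43 lower members (93.0%) and 33 of the 39 higher members (84.6%), beside 77.0% of all transcripts past the filter. Without WT DMBA replicate 1 the counts were 39 and 31. Of the 32 higher members that would have passed the filter on the other 9 libraries, 28 (87.5%) were within 2-fold. The filter and the rule already keep both groups on the same side of Tcrb-/- DMBA, so part of this closeness is fixed by the choice. A transcript counted as called where edgeR's quasi-likelihood test gave an adjusted p under 0.01 and the fold was above 2. Of 54539 transcripts tested, 216 (0.396%) were called between these groups, and 0 of the 82 members were. DESeq2 called 0 members too, beside 3.67% of all transcripts. At an unadjusted p under 0.05, 1 lower and 1 higher member passed, beside 14% of all transcripts. Every Treg library lay above every WT DMBA library in 1 lower and 0 higher members, beside 8.61% of all transcripts, and below in 7 lower and 2 higher members, beside 21.4%. The lower member at an unadjusted p under 0.05 was the 476-nt transcript, at -1.08 on the log2 scale (SE 0.45, edgeR adjusted p = 0.311), and the higher member was a transcript of 2060 nt, at -1.38 (SE 0.45, adjusted p = 0.166).

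The absence of calls does not show that Treg transfer brought the levels to those of WT DMBA. The median log2 difference was -0.03 in the lower members with a median SE of 0.76, and 0.30 in the higher members with a median SE of 1.0, beside a median of 0 over all transcripts tested. At such errors a difference of several fold could go unseen. Single members ranged from -1.40 to 1.01 in the lower list and from -1.38 to 2.59 in the higher list. The sign of these differences depended on the scaling. By edgeR's TMM scaling 21 of the 43 lower and 30 of the 39 higher members were above WT DMBA after transfer. By CPM, which places the median of all transcripts past the filter at -0.16, these were 15 and 24. Without WT DMBA replicate 1 the median log2 difference was 0.09 in the lower and 0.42 in the higher members, so that the sign of the lower list's median also turned on that library, and by CPM 14 lower and 24 higher members were above WT DMBA. The higher members thus lay above WT DMBA more often than below it under both scalings, beside 38.6% of all transcripts by CPM.

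**Figure D5:**
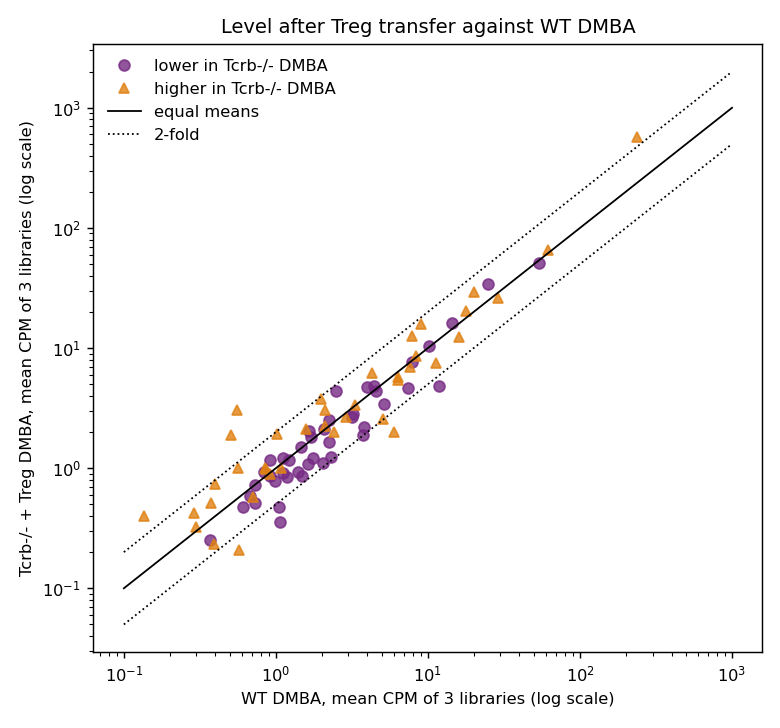
Each point is a member, with its mean CPM of 3 libraries in WT DMBA on the horizontal axis and in Tcrb-/- + Treg DMBA on the vertical axis, both on log scales. The solid line marks equal means and the dotted lines 2-fold, and 40 of the 43 lower members (circles) and 33 of the 39 higher members (triangles) fall between the dotted lines.

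No member passed edgeR's test for an effect of DMBA alone in WT skin. Between WT DMBA and UT WT, it called 0 of the 82 members and 126 (0.231%) of all transcripts, with 10 higher and 0 lower members at an unadjusted p under 0.05, beside 11.4% of all. DESeq2 called 6 of the higher members and 0 of the lower, beside 2.25% of all. The lowest adjusted p by edgeR were those of the 2358-nt transcript (log2 difference 7.93, SE 1.20, adjusted p = 0.0126) and the 413-nt transcript (6.85, SE 1.08, adjusted p = 0.0152). By CPM the mean was higher in WT DMBA in 31 of the 39 higher and 11 of the 43 lower members, beside 51.0% of all transcripts. The lower members leaned the other way, with every WT DMBA library below every UT WT library in 10 of them (23.3%) and above in 1, beside 13.3% and 14.6% of all. Without WT DMBA replicate 1 the mean was higher in 27 higher and 8 lower members, and 14 lower members had every library below UT WT. Their median log2 difference was -0.28 (median SE 0.76), and that of the higher members 0.42 (median SE 1.14), beside 0.01 over all transcripts tested.

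Between Tcrb-/- + Treg DMBA and UT WT, 3 of the 82 members were called, all among the higher members and all higher, beside 1.97% of all transcripts in either direction and 1.07% higher. They were the 413-nt transcript (log2 difference 7.59, SE 1.1, edgeR adjusted p = 0.00289), the 2358-nt transcript (8.19, SE 1.21, adjusted p = 0.00312) and the 1268-nt transcript (4.43, SE 0.77, adjusted p = 0.00666). Over 12 alternatives these adjusted p reached 0.0391, 0.0357 and 0.0371, and the transcripts were called in 6, 7 and 5 of them. The count was 5 without Tcrb-/- + Treg DMBA replicate 2, 2 without replicate 3 of that group and 1 without UT WT replicate 1 or 3. It was 0 without replicate 1 of the Treg group or without UT WT replicate 2. With only these 2 groups in the fit, or with a block for replicate number, it was also 0. UT WT held 1 read of the 413-nt transcript in all, so the ratio of 223 has an exact 95% interval from counting of 39.6 to 8847. Intervals from counting leave out the spread between libraries and the division of reads between transcripts.

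No other member passed this test, and there were 10 higher and 4 lower members at an unadjusted p under 0.05, beside 19.1% of all. DESeq2 called 7 higher and 2 lower members, beside 5.85% of all. Every Treg library lay above every UT WT library in 9 higher and 0 lower members, beside 12.3% of all transcripts, and below in 0 higher and 10 lower members, beside 23.2%. Of the 39 higher members, 17 had group means in the order UT WT, WT DMBA, Tcrb-/- + Treg DMBA from low to high and 9 had the last 2 exchanged. Of the 43 lower members, 19 had the order Tcrb-/- + Treg DMBA, WT DMBA, UT WT from low to high and 11 had the first 2 exchanged. Shares of these orders over all transcripts were not computed, so they are not read as a trait of the members. By CPM the Treg mean was above WT DMBA in 34.9% of the lower members, near the 38.6% of all transcripts. It was above UT WT in 30 higher and 6 lower members, beside 39.7% of all.

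Neighbours in identifier number seldom went with a member, as was so for all transcripts past the filter. Summing the transcripts within 10 numbers of each member, the member left out, the Tcrb-/- DMBA libraries were set apart in the same direction for 1 of the 43 lower and 0 of the 39 higher members, beside 0.779% and 0.469% of all transcripts past the filter. With the member included, the sum was set apart in the same direction for 1 lower and 2 higher members, and 2-fold for 0. A member held a median of 0.851% of that sum in the lower list and 1.63% in the higher list. Such a sum could thus hardly follow the member, and these counts say little about it. Identifier numbers are a label and not a map, and whether neighbours belong to the same gene was not analysed here. Beside the run of 3 transcripts, the remaining close pair was that of the 1106-nt and 966-nt transcripts. They had 52.8, 50.0 and 48.4 CPM and 53.3, 36.4 and 34.6 CPM in Tcrb-/- DMBA. Both were lowest in replicate 3 within the Treg group, at 0 and 1.17 CPM, where replicates 1 and 2 had 27.0 and 34.3 CPM and 5.51 and 30.4 CPM.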

How the data were processed

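Bulk RNA sequencing was carried out by the authors on 12 libraries of mouse back skin (TruSeq RNA v2, HiSeq). The authors quantified transcripts of the Ensembl FVB/NJ cDNA set with Salmon 1.5.2 and deposited, per transcript, estimated counts, which are not normalized, TPM values (relative abundance scaled for length and depth) and lengths. Submitters' processing notes also name CASAVA 1.8.4, FastQC 0.12.1, MultiQC 1.11 and Picard. The authors' later sums over genes were not used here.

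The members and lists were chosen with earlier results of these data known. CPM was computed from the estimated counts. Counts were rounded, transcripts with under 10 reads in all were left out, and 54539 were tested by edgeR's quasi-likelihood F test (version 4.0.16 under R 4.3.3) in a fit of all 12 libraries, with TMM scaling and Benjamini-Hochberg adjustment over all of them. Calls needed an adjusted p under 0.01 and a fold above 2. The common dispersion was 0.818. SEs are the log2 fold change over the root of F. DESeq2 1.42.0, other scalings, thresholds and filters, effective lengths, deposited TPM, a block for replicate number and leaving out each library were the alternatives. Python 3.11.15 and matplotlib 3.10.9 were used for figures.

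Members were ranked by the smallest of their 3 folds, with a group mean under 3 reads per library set to that floor. The first 2 in each direction are named, and the next 6 and those at the threshold are described by length. Gene names, marker lists, sequences and coordinates need a table of FVB/NJ transcripts and were not used here. No pair of replicates agreed within sampling noise, so none were merged.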

Additional observations from a re-analysis of the deposited data

How the results depend on the processing

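With a fold of 1.5 in place of 2, the lower members were 75 and the higher 75, and with a fold of 3 they were 22 and 15. A minimum mean of 0.1 CPM gave 76 higher members. Whole-number estimates alone left 2 lower and 6 higher. Leaving out each library in turn gave 45 to 196 lower and 36 to 98 higher members. Those that moved the count by over 1.5 times were the 3 Tcrb-/- DMBA libraries in both lists and, for the lower list, Tcrb-/- + Treg DMBA replicate 1 (72). Leaving out a Tcrb-/- DMBA library makes the rule easier to meet, so part of that rise is fixed. TMM-scaled CPM gave 42 and 40 members, and deposited TPM 42 and 36.

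Between WT DMBA and UT WT the count of members called was 0 and became 2 at an adjusted p under 0.05, 6 with DESeq2 and 1 with no filter on low counts, and it was 0 to 0 on leaving out each library. Between Tcrb-/- + Treg DMBA and WT DMBA it was 0 in every alternative run. Between Tcrb-/- + Treg DMBA and UT WT the 3 calls became 6 at an adjusted p under 0.05, 9 with DESeq2, 0 with only the 2 groups compared, and 0 to 5 on leaving out each library (1 without UT WT replicate 1 or 3). Causes were not tested.

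Replicate numbers did not pair the libraries: the 9 correlations of same-numbered libraries ran from -0.0678 to 0.0419, and 1 of 9 was best with its own number. With the replicate block 0 members were called in each of the 3 comparisons, against 3 without it between Tcrb-/- + Treg DMBA and UT WT. Descriptions of the same members without Tcrb-/- DMBA replicate 1 or WT DMBA replicate 1, and the count over members that pass the filter on the other 9 libraries, were chosen after seeing the data. Low reads limit the lower list most, with a median of 32.2 per library.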
